A study of Mus musculus with 12 samples.

Results

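The enteric nervous system is the network of neurons and glia in the wall of the gut. Its cells derive from the neural crest, which migrates into the gut under the receptor tyrosine kinase Ret and the endothelin receptor Ednrb, and settles in ganglia between and beneath the muscle layers. Excitatory motor neurons release acetylcholine and tachykinins, inhibitory motor neurons release nitric oxide and vasoactive intestinal peptide, and glia surround both. The measurements below concern 31 genes of this system, chosen by symbol from a table of 55335 genes: 26 neuron genes, 3 glia genes (Gfap, S100b and Sox10) and the receptors Ednrb and Ngfr, which neural crest cells, glia and other cells carry. Each symbol was found, with 1 row each.

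The 12 libraries were made from colon of wild-type mice with colitis, in 4 groups of 3: trinitrobenzene sulfonic acid (TNBS) with normal saline, TNBS with thymopentin, dextran sulfate sodium (DSS) with normal saline, and DSS with thymopentin. TNBS is a hapten, and DSS is a sulfated polysaccharide that injures the epithelium. Thymopentin (TP5) is a synthetic peptide that corresponds to the active stretch of the thymic hormone thymopoietin. The study asked which signals in the colitic colon thymopentin acts on. All 4 groups had colitis, so no value below is a level in a colon without colitis, and the labels do not state strain, age, dose, timing or colon segment. Nothing in the labels says that replicates of a group came from separate mice or days, so p-values measure only the spread between these libraries.

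RNA was total colon RNA sequenced in bulk, and levels are FPKM, fragments scaled to transcript length and library size, which can be compared between genes of different length. In bulk tissue, fewer neurons or glia and less RNA per cell cannot be told apart. Total reads per library are not stated; summed FPKM ran from 384431 to 532510, and the size factors recovered from the authors' selected tables from 0.8468 to 1.125. TNBS saline 3 stood apart in the posterior homeobox gene Hoxb13, at 0.722 FPKM against 50.04 and 86.9 in TNBS saline 1 and 2. There Hoxd13 was 0 against 2.8 and 1.55 FPKM, and Hoxa13 21.6 against 23.2 and 22.3. Hoxb13 also separated the DSS groups, at 52.8, 59.9 and 65.4 FPKM with saline and 122, 109 and 104 with thymopentin. Hoxd13 and Hoxa13 overlapped between the DSS groups. These genes were singled out after their values were seen, and whether position along the colon differed between libraries was not tested. Epithelial and smooth muscle markers were present in all libraries, summing to 3914 FPKM or more over 10 epithelial genes and to 787.5 FPKM or more over 12 smooth muscle genes. DSS saline libraries had the highest smooth muscle sums, from 3011 to 3550 FPKM, and this is given beside the results below.

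The promoters of Vip, Scg2 and Cartpt are shown because, of those found for the 31 genes, these hold TGACGTCA or TGACGTCT just before the start of transcription. TGACGTCA is the 8-letter cyclic AMP response element, and TGACGTCT is that element with its last letter changed to T. Other changes of the last letter were not searched. The letters do not go with one pattern of levels: Vip and Scg2 were among the genes called between the saline groups, and Cartpt was not. Vip encodes vasoactive intestinal peptide, Scg2 encodes secretogranin II, a precursor stored in secretory granules, and Cartpt encodes the CART prepropeptide. The 120 bases before the annotated start are printed 5′ to 3′ on the strand of the gene, from RefSeq on GRCm38.p6, with the element in capitals. They lie at chr10:5639098-5639217 on the plus strand for Vip, chr1:79440027-79440146 on the minus strand for Scg2 and chr13:99900684-99900803 on the minus strand for Cartpt.
Vip: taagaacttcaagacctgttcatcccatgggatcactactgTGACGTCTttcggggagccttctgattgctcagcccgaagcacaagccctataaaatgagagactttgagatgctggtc
Scg2: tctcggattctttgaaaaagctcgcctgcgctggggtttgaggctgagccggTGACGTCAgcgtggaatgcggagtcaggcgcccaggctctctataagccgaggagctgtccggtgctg
Cartpt: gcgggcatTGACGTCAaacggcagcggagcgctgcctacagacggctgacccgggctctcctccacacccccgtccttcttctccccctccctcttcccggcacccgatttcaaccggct
The element begins 79 bases before the start in Vip, 68 in Scg2 and 112 in Cartpt. RefSeq promoters, from 250 bases before to 50 after the start, were found for 24 of the 31 genes. Searched on both strands, TGACGTCA was in 2 of these 24 (Scg2 and Cartpt) and in 2.03% of 27025 genes, and TGACGTCT in 1 of 24 (Vip) and in 0.636% of genes. The shorter TGACG, which both contain, was in 11 of 24 and in 23.0% of genes. TTCAGCACC, the left part of the element bound by the neuron-restrictive silencer factor, was in the Scg2 window and in 0.433% of genes, and the right part of that element in 0 of 24 and in 0.167% of genes. The E-box CAGCTG was in 5 of 24 and in 18.3% of genes, and the E-box CATCTG in 9 of 24 and in 19.2%. TATAAA, the TATA box, was in 3 of 24 and in 15.7% of genes, and ACAAAG, a core bound by Sox factors, in 3 of 24 and in 21.0%. These are matches of letters in a window, not binding measurements.

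Summed over the 26 neuron genes, DSS saline colon was highest and the other groups lay lower. The neuron sum was 74.01 ± 2.74 FPKM (SD, n = 3) in TNBS saline, 109 ± 22.3 in TNBS thymopentin, 212 ± 26.95 in DSS saline and 104 ± 24.7 in DSS thymopentin. The DSS saline libraries, from 183.6 to 237 FPKM, did not overlap the other 9. TNBS saline, from 71.2 to 76.7 FPKM, lay below TNBS thymopentin, from 89.9 to 133.6, without overlap. The 3 glia genes summed to 2.104 ± 0.321 FPKM in TNBS saline, 2.94 ± 0.931 in TNBS thymopentin, 6.64 ± 0.981 in DSS saline and 3.34 ± 0.515 in DSS thymopentin. Neuron and glia sums kept a similar ratio, 35.7 ± 4.83, 38.4 ± 8.06, 32.4 ± 6.36 and 30.9 ± 3.14 in the same order of groups. Smooth muscle genes followed the same order at a higher level, 1564 ± 805, 1846 ± 346, 3365 ± 307 and 1726 ± 364 FPKM. Per 1000 FPKM of smooth muscle genes the neuron sum was 57.4 ± 30.3, 59.1 ± 3.52, 63.5 ± 10.5 and 60.1 ± 2.13 FPKM, and these ranges overlapped between all groups. Per 1000 FPKM of smooth muscle genes the glia sum was 1.57 ± 0.686, 1.57 ± 0.236, 1.97 ± 0.125 and 1.95 ± 0.137 FPKM. Here TNBS thymopentin, from 1.31 to 1.77, lay below DSS saline, from 1.84 to 2.09, and DSS thymopentin, from 1.86 to 2.11, while TNBS saline, from 1.03 to 2.34, overlapped all groups. Within TNBS saline the muscle sum ran from 787.5 to 2395 FPKM while the neuron sum stayed within 71.2 to 76.7, so there the 2 sums did not move together.

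**Figure D1:**
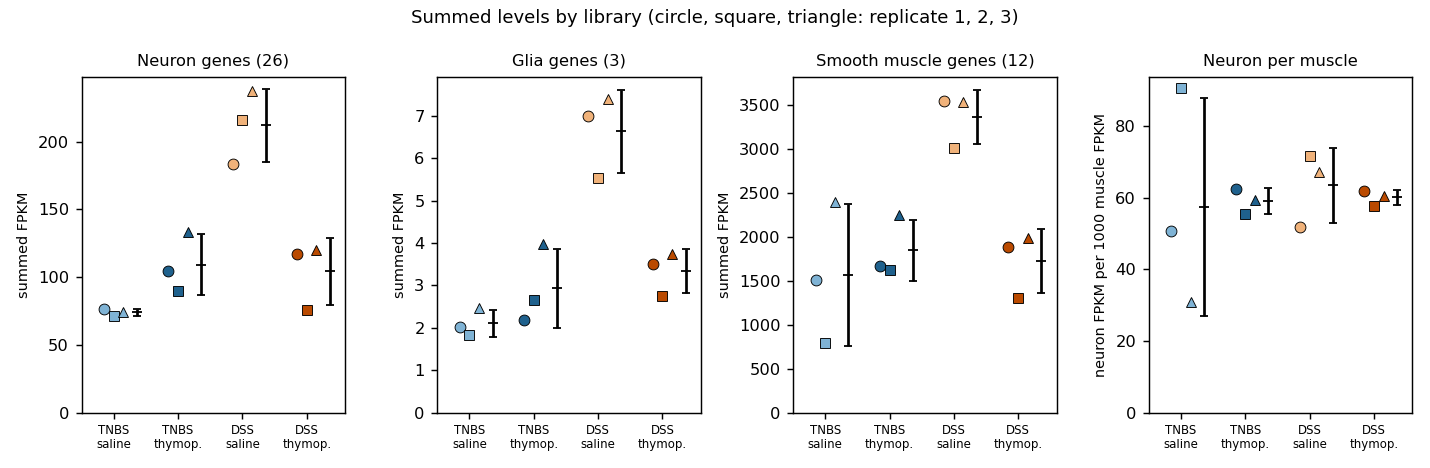
Summed FPKM of the neuron genes, the glia genes and the smooth muscle list, and the neuron sum per 1000 FPKM of smooth muscle genes, by group; each point is a library, marked by replicate number, and the bar beside it is the group mean ± SD. DSS saline sits highest in the first 3 panels (212 FPKM for neurons), and in the last panel the groups overlap.

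Each gene was tested on log2(FPKM + 1) with limma's moderated test over all 13794 genes with a mean of at least 1 FPKM, and a gene is called at a Benjamini-Hochberg adjusted p under 0.05. The added 1 shrinks the fold change of genes with low FPKM. Of the 31 genes, 25 passed that minimum; Nefm, Elavl3, Chat, Npy, Cartpt and Sox10 did not. A gene near the minimum could pass through its DSS saline level alone, so counts over all 31 genes are given too, from a fit of 21642 genes with a mean of at least 0.1 FPKM. A difference between conditions is given as a log2 fold change, and a level as FPKM.

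Genes of the neuronal cytoskeleton and axon come first. Tubb3 encodes the neuronal class of β-tubulin. In TNBS, Tubb3 held 3.44, 3.53 and 3.32 FPKM with saline and 3.85, 3.597 and 6.28 with thymopentin. In DSS, Tubb3 held 9.47, 9.48 and 11.9 FPKM with saline and 5.93, 3.41 and 5.37 with thymopentin. All 3 DSS saline libraries exceeded the other 9, and TNBS saline was the tightest group. Prph encodes peripherin, an intermediate filament of peripheral neurons. In TNBS, Prph held 3.63, 3.73 and 3.72 FPKM with saline and 7.09, 4.71 and 8.02 with thymopentin. In DSS, Prph held 12.4, 15.8 and 17.6 FPKM with saline and 7.98, 5.296 and 8.97 with thymopentin. TNBS saline libraries were nearly equal and lay below every other library. Uchl1 encodes a ubiquitin hydrolase abundant in neurons (PGP9.5). In TNBS, Uchl1 held 5.05, 4.72 and 3.34 FPKM with saline and 7.53, 6.802 and 12.2 with thymopentin. In DSS, Uchl1 held 13.1, 19.2 and 16.98 FPKM with saline and 9.19, 5.401 and 10.9 with thymopentin. DSS saline was above all other libraries, and TNBS saline was below them all. Sncg encodes γ-synuclein of axons. In TNBS, Sncg held 6.58, 4.79 and 6.15 FPKM with saline and 7.19, 5.496 and 11.5 with thymopentin. In DSS, Sncg held 19.03, 22.8 and 20.1 FPKM with saline and 10.6, 7.73 and 13.6 with thymopentin. Its DSS saline values stood clear of the rest, and its TNBS groups overlapped.

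Growth cone and neurofilament genes, Nefm apart, were also highest in DSS saline by mean. Gap43 encodes a membrane protein of growing axons. In TNBS, Gap43 held 2.25, 2.05 and 2.35 FPKM with saline and 3.53, 2.82 and 5.73 with thymopentin. In DSS, Gap43 held 6.899, 7.81 and 8.57 FPKM with saline and 4.65, 2.81 and 4.5 with thymopentin. The DSS saline libraries were highest and the TNBS saline libraries lowest, with no overlap within either model. Stmn2 encodes a microtubule regulator of axons. In TNBS, Stmn2 held 1.38, 1.34 and 1.36 FPKM with saline and 2.35, 1.83 and 3.35 with thymopentin. In DSS, Stmn2 held 4.06, 5.199 and 4.81 FPKM with saline and 2.92, 2.15 and 2.76 with thymopentin. TNBS saline was lowest throughout, and the thymopentin groups of the models overlapped. Stmn3 encodes a related stathmin. In TNBS, Stmn3 held 3.77, 2.04 and 2.57 FPKM with saline and 3.82, 2.1 and 4.03 with thymopentin. In DSS, Stmn3 held 7.601, 8.596 and 8.07 FPKM with saline and 3.804, 2.27 and 3.76 with thymopentin. Only DSS saline stood apart here, since TNBS saline and TNBS thymopentin overlapped. Nefl encodes the light neurofilament. In TNBS, Nefl held 1.27, 0.853 and 1.13 FPKM with saline and 1.42, 1.4 and 2.18 with thymopentin. In DSS, Nefl held 2.23, 2.09 and 2.31 FPKM with saline and 1.56, 0.993 and 2.02 with thymopentin. DSS saline libraries were the most alike, and TNBS thymopentin 3 fell within their range. Nefm, the medium neurofilament, averaged 0.401 ± 0.117 FPKM in TNBS saline, 0.832 ± 0.198 FPKM in TNBS thymopentin, 0.744 ± 0.0792 FPKM in DSS saline and 0.644 ± 0.0659 FPKM in DSS thymopentin (SD, n = 3). L1cam, an adhesion molecule of axons that other cells also express, went the other way. In TNBS, L1cam held 11.4, 10.5 and 14.2 FPKM with saline and 10.3, 11.2 and 14.3 with thymopentin. In DSS, L1cam held 8.41, 8.25 and 7.51 FPKM with saline and 10.1, 10.98 and 11.7 with thymopentin. DSS saline was the lowest group for L1cam and overlapped none of the others.

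Between the saline groups 8 of the 9 cytoskeletal and axonal genes tested were higher in DSS, and L1cam was lower, where 15.2% of all tested genes were higher and 31.5% lower. Prph differed by 1.78 ± 0.20 (SE, limma adjusted p = 0.00014) on the log2 scale, Uchl1 by 1.70 ± 0.26 (SE, limma adjusted p = 0.000628) and L1cam by -0.52 ± 0.13 (SE, limma adjusted p = 0.0092). The L1cam call was lost when library scale was set by quantiles (adjusted p = 0.0679) or by median ratios (adjusted p = 0.0547), and its adjusted p over the other alternatives stayed under 0.05. With thymopentin in DSS, where 4.3% of all tested genes fell, 7 of the 9 fell: Stmn3 by 1.11, Prph by 0.96, Tubb3 by 0.95, Sncg by 0.92, Uchl1 by 0.91, Gap43 by 0.83 and Stmn2 by 0.66. Nefl (-0.37) and L1cam (0.40) were not called. Stmn3 alone of the 7 stayed called over the 12 fits that each left out a library. Without DSS saline 3 the calls of the other 6 were lost, with adjusted p of 0.0528 for Tubb3 and 0.0538 for Prph, and without DSS thymopentin 2 those of Gap43, Stmn2, Sncg and Uchl1 were lost. The Sncg and Uchl1 calls were also lost without DSS saline 1, DSS saline 2 or DSS thymopentin 1, and that of Uchl1 without TNBS saline 1 or TNBS thymopentin 1, with adjusted p up to 0.129.

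The neuronal RNA-binding proteins HuC and HuD are encoded by Elavl3 and Elavl4. In TNBS, Elavl4 held 0.999, 0.775 and 0.77 FPKM with saline and 1.49, 0.991 and 2.12 with thymopentin. In DSS, Elavl4 held 2.47, 3.57 and 3.304 FPKM with saline and 1.99, 1.199 and 1.87 with thymopentin. DSS saline exceeded all other libraries, and the TNBS groups overlapped by a narrow margin. Elavl3 was lower, at 0.252 ± 0.07102 FPKM in TNBS saline, 0.404 ± 0.188 FPKM in TNBS thymopentin, 0.832 ± 0.204 FPKM in DSS saline and 0.503 ± 0.06599 FPKM in DSS thymopentin (SD, n = 3). Elavl4 was higher in DSS saline than in TNBS saline by 1.15 ± 0.18 (SE, limma adjusted p = 0.000665). In DSS it fell with thymopentin by 0.62 (adjusted p = 0.0411), a call that 8 of the 12 leave-outs ended: TNBS saline 1, TNBS saline 2, TNBS thymopentin 1, DSS saline 2 and 3, and each DSS thymopentin library, with adjusted p up to 0.136.

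Vesicle and secretory genes were again highest in DSS saline. Snap25 encodes a SNARE protein of synaptic vesicle fusion. In TNBS, Snap25 held 1.72, 1.502 and 1.405 FPKM with saline and 2.603, 2.17 and 3.36 with thymopentin. In DSS, Snap25 held 4.44, 4.86 and 5.51 FPKM with saline and 2.79, 1.57 and 2.65 with thymopentin. DSS saline stood clear of all other libraries, and TNBS saline lay below TNBS thymopentin. Syt1 encodes the calcium sensor of vesicle release. In TNBS, Syt1 held 0.666, 0.556 and 0.654 FPKM with saline and 1.44, 0.939 and 2.03 with thymopentin. In DSS, Syt1 held 2.31, 3.15 and 3.32 FPKM with saline and 1.59, 0.935 and 1.33 with thymopentin. The order of the groups was that of Snap25. Syp encodes synaptophysin of the vesicle membrane. In TNBS, Syp held 1.01, 0.921 and 1.33 FPKM with saline and 1.72, 1.55 and 2.12 with thymopentin. In DSS, Syp held 2.47, 3.29 and 2.87 FPKM with saline and 1.63, 1.29 and 1.64 with thymopentin. Its 3 TNBS saline libraries lay below all of TNBS thymopentin. Scg2 is the secretogranin whose promoter is printed above. In TNBS, Scg2 held 5.08, 4.53 and 5.98 FPKM with saline and 8.95, 6.68 and 12.4 with thymopentin. In DSS, Scg2 held 13.1, 17.7 and 18.5 FPKM with saline and 10.1, 4.59 and 8.21 with thymopentin. DSS saline was highest, and DSS thymopentin 2 fell to the level of TNBS saline. Rtn1 encodes a reticulon of the endoplasmic reticulum in neurons and endocrine cells. In TNBS, Rtn1 held 1.19, 1.096 and 1.15 FPKM with saline and 2.22, 1.51 and 2.799 with thymopentin. In DSS, Rtn1 held 3.65, 4.31 and 4.47 FPKM with saline and 2.44, 1.41 and 2.74 with thymopentin. TNBS saline was again tight and lowest. Snap25, Syp, Scg2 and Rtn1 are known in enteroendocrine cells as well.

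All 5 vesicle and secretory genes were higher in DSS saline than in TNBS saline, Scg2 by 1.48 ± 0.26 (SE, limma adjusted p = 0.00126) and Rtn1 by 1.26 ± 0.18 (SE, limma adjusted p = 0.000417). All 5 fell with thymopentin in DSS, Scg2 by 1.06, Snap25 by 0.85 (adjusted p = 0.00869), Syt1 by 0.78, Rtn1 by 0.71 and Syp by 0.62 (adjusted p = 0.0102). The calls of Snap25 and Syp in DSS held in all 12 leave-outs. Those of Scg2, Syt1 and Rtn1 were lost without DSS saline 3 or DSS thymopentin 2, and those of Scg2 and Rtn1 also without DSS saline 2, with adjusted p up to 0.087.

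The transmitter enzymes were low. Chat, choline acetyltransferase of cholinergic neurons, was under 1 FPKM in every library. In TNBS, Chat held 0.136, 0.06 and 0.264 FPKM with saline and 0.102, 0.148 and 0.415 with thymopentin. In DSS, Chat held 0.3197, 0.492 and 0.525 FPKM with saline and 0.169, 0.2004 and 0.225 with thymopentin. DSS saline was above DSS thymopentin, and the TNBS groups overlapped. Nos1 encodes the neuronal nitric oxide synthase of inhibitory motor neurons. In TNBS, Nos1 held 1.12, 1.21 and 1.24 FPKM with saline and 2.46, 1.05 and 1.73 with thymopentin. In DSS, Nos1 held 2.95, 2.31 and 1.58 FPKM with saline and 0.528, 0.917 and 2.02 with thymopentin. DSS thymopentin spread over the widest range, from 0.528 to 2.02 FPKM, and overlapped DSS saline. Nos1 was the only gene of the 25 not called between the saline groups, at 0.56 ± 0.26 (SE, limma adjusted p = 0.1). In DSS its change with thymopentin was -0.64 ± 0.26 (SE, limma adjusted p = 0.11), which did not pass.

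Neuropeptide precursors included the largest changes. Vip encodes the relaxant peptide of inhibitory motor and secretomotor neurons. In TNBS, Vip held 7.47, 9.19 and 2.38 FPKM with saline and 14.1, 13.5 and 11.1 with thymopentin. In DSS, Vip held 25.9, 28.8 and 37.9 FPKM with saline and 14.3, 7.43 and 12.2 with thymopentin. DSS saline exceeded all other libraries, and TNBS saline 3, the library low in Hoxb13, was the lowest of all 12. Tac1 encodes substance P and neurokinin A, the excitatory tachykinins. In TNBS, Tac1 held 6.23, 7.04 and 4.18 FPKM with saline and 4.55, 5.67 and 5.28 with thymopentin. In DSS, Tac1 held 15.4, 14.7 and 26.1 FPKM with saline and 6.31, 3.901 and 5.96 with thymopentin. The TNBS groups overlapped, and DSS saline 3 held the highest value. Gal encodes galanin. In TNBS, Gal held 5.4, 3.44 and 7.43 FPKM with saline and 8.54, 6.65 and 8.95 with thymopentin. In DSS, Gal held 10.6, 10.6 and 12.1 FPKM with saline and 6.62, 3.36 and 5.67 with thymopentin. DSS thymopentin lay below TNBS thymopentin, with 6.62 FPKM in DSS thymopentin 1 against 6.65 in TNBS thymopentin 2 at the nearest. Npy encodes neuropeptide Y, and it was listed at 0 in TNBS saline 3 and ran up to 2.22 FPKM in DSS saline 3. Cartpt ran from 0.75 to 1.85 FPKM in TNBS saline, 0.751 to 1.39 in TNBS thymopentin, 0.68 to 1.62 in DSS saline and 0.205 to 0.677 in DSS thymopentin. The DSS thymopentin libraries were thus the lowest for Cartpt, by a margin of 0.677 against 0.68 FPKM.

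Vip was 2.25 ± 0.37 (SE, limma adjusted p = 0.000819) higher on the log2 scale in DSS saline than in TNBS saline, the largest difference of the 25 genes, Tac1 1.51 ± 0.24 (SE, limma adjusted p = 0.000688) and Gal 0.96 ± 0.24 (SE, limma adjusted p = 0.00872). With the smooth muscle level as a term in the fit, the Gal difference was 0.099 and its call was lost (adjusted p = 0.69), while Vip and Tac1 stayed called. With thymopentin in DSS, Tac1 fell by 1.60 ± 0.24 (SE, limma adjusted p = 0.00301), from 18.7 ± 6.42 to 5.39 ± 1.30 FPKM, a call that held in all 12 leave-outs. Vip fell by 1.40 ± 0.37 (SE, limma adjusted p = 0.0295), from 30.85 ± 6.28 to 11.3 ± 3.54 FPKM, and Gal fell from 11.1 ± 0.875 to 5.22 ± 1.68 FPKM (limma adjusted p = 0.0224). The Vip call was lost on leaving out each DSS saline library, DSS thymopentin 2 or DSS thymopentin 3, with adjusted p up to 0.102, and the Gal call without DSS saline 1, DSS saline 3 or DSS thymopentin 2, with adjusted p up to 0.0777. In TNBS the change of Vip was 1.06 ± 0.37 (SE, limma adjusted p = 0.25) and that of Tac1 -0.12 ± 0.24 (SE, limma adjusted p = 0.89); neither passed, and without TNBS saline 2 the Tac1 value was 0.007.

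Among lineage regulators, Ret is the receptor for the GDNF family, which neuron precursors and some neurons carry. In TNBS, Ret held 1.68, 1.34 and 2.31 FPKM with saline and 1.93, 1.82 and 2.52 with thymopentin. In DSS, Ret held 2.58, 3.19 and 3.18 FPKM with saline and 2.098, 1.01 and 1.85 with thymopentin. DSS saline libraries were highest, though TNBS thymopentin 3 came within 0.1 FPKM of the lowest of them. Hand2 is a transcription factor of enteric neuron differentiation, also present in mesenchyme. In TNBS, Hand2 held 3.602, 2.72 and 4.76 FPKM with saline and 4.29, 4.28 and 7.76 with thymopentin. In DSS, Hand2 held 11.3, 15.4 and 14.7 FPKM with saline and 7.09, 4.52 and 7.27 with thymopentin. DSS saline stood far above the rest, and the other groups overlapped in part. Between the saline groups Hand2 was higher in DSS by 1.67 ± 0.24 (SE, limma adjusted p = 0.000447) and Ret by 0.53 ± 0.18 (SE, limma adjusted p = 0.033). The Ret call was lost without TNBS saline 1, TNBS saline 2, DSS saline 2 or DSS saline 3, with adjusted p up to 0.111. In DSS, Hand2 fell with thymopentin by 1.03 (adjusted p = 0.0194) and Ret by 0.61 (adjusted p = 0.0436). The Hand2 call was lost without DSS saline 3 or DSS thymopentin 2, with adjusted p up to 0.0724. The Ret call was lost without TNBS saline 1, TNBS thymopentin 1 or 2, any DSS saline library, or DSS thymopentin 2 or 3, with adjusted p up to 0.134.

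**Figure D2:**
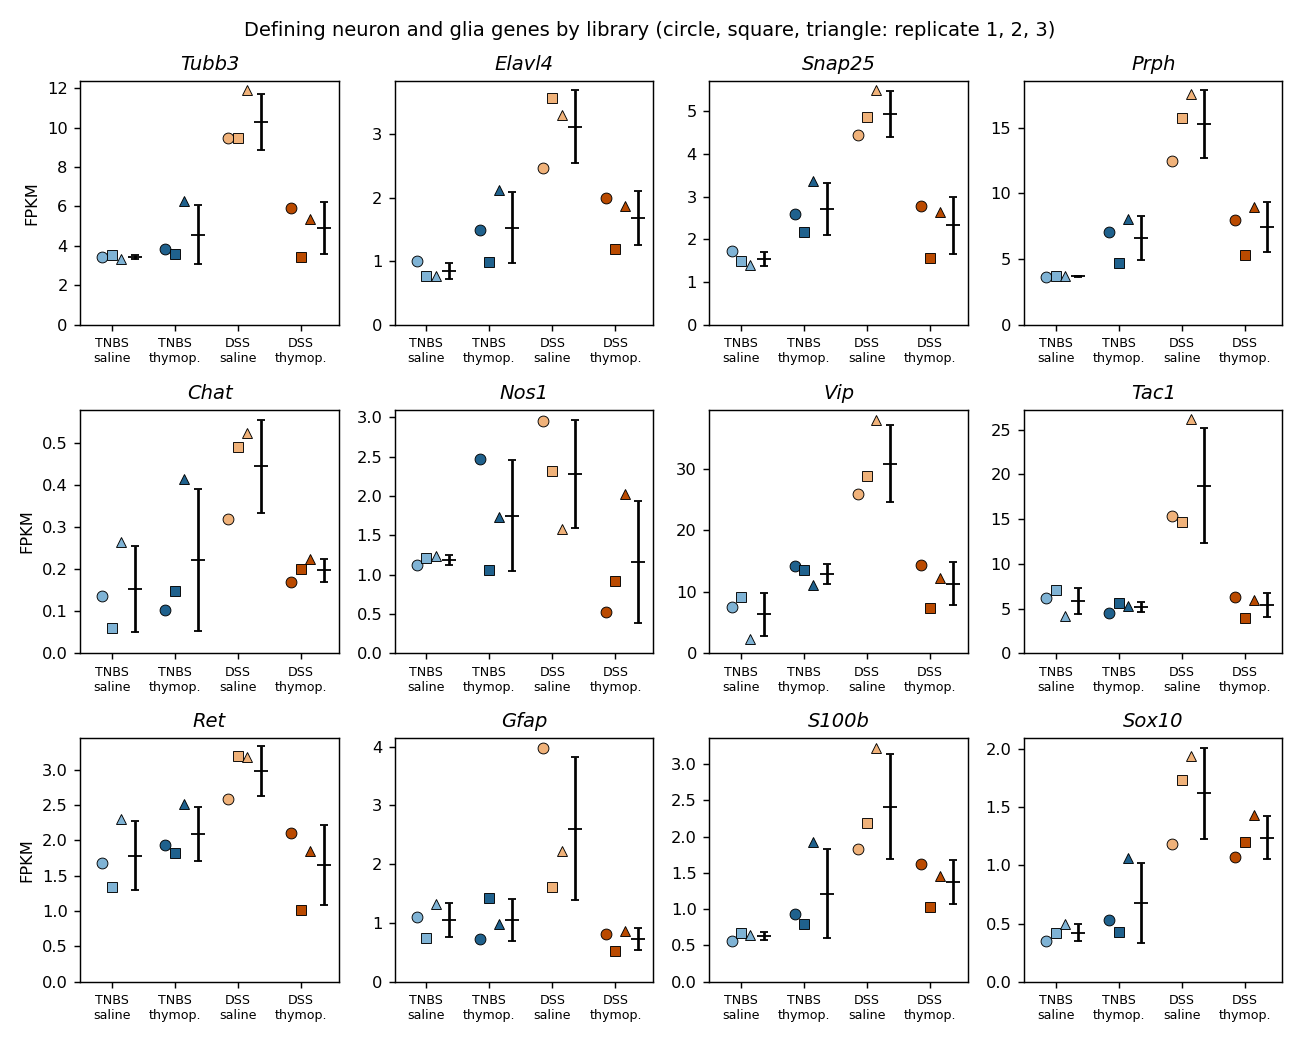
FPKM by library for 12 neuron and glia genes in the 4 groups; points are libraries, marked by replicate number, and bars are group means ± SD. DSS saline is the highest group for each of them by mean (Vip 30.85 FPKM). For Nos1, DSS saline lies above TNBS saline and overlaps both thymopentin groups.

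Glia genes were read apart from neurons. Gfap encodes the glial intermediate filament, which reactive glia raise. In TNBS, Gfap held 1.098, 0.747 and 1.32 FPKM with saline and 0.722, 1.43 and 0.989 with thymopentin. In DSS, Gfap held 3.97, 1.62 and 2.23 FPKM with saline and 0.805, 0.5203 and 0.863 with thymopentin. DSS saline 1 was highest by far, and DSS thymopentin held the lowest library of all. S100b encodes a calcium-binding protein of enteric glia. In TNBS, S100b held 0.564, 0.6705 and 0.639 FPKM with saline and 0.927, 0.799 and 1.92 with thymopentin. In DSS, S100b held 1.83, 2.18 and 3.23 FPKM with saline and 1.63, 1.04 and 1.45 with thymopentin. TNBS saline libraries were lowest, and DSS thymopentin lay below DSS saline. Sox10 is the transcription factor that maintains crest-derived glia. In TNBS, Sox10 held 0.348, 0.423 and 0.498 FPKM with saline and 0.535, 0.426 and 1.07 with thymopentin. In DSS, Sox10 held 1.18, 1.73 and 1.94 FPKM with saline and 1.07, 1.205 and 1.44 with thymopentin. Every DSS library exceeded every TNBS library, by a narrow margin at the nearest, and within each model the saline and thymopentin libraries overlapped.

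In DSS saline against TNBS saline, S100b was higher by 1.05 ± 0.20 (SE, limma adjusted p = 0.00183) and Gfap by 0.77 ± 0.23 (SE, limma adjusted p = 0.0173). The Gfap call was lost without TNBS saline 2 or DSS saline 1, with adjusted p up to 0.0593. With the smooth muscle level as a term both calls were lost, S100b at 0.72 (adjusted p = 0.0829) and Gfap at 0.47 (adjusted p = 0.312). Sox10, fitted at the lower minimum, was higher by 0.87 ± 0.15 (SE, limma adjusted p = 0.00155). With thymopentin in DSS, Gfap fell by 1.01 ± 0.23 (SE, limma adjusted p = 0.0157), and its call was lost without DSS thymopentin 2 (adjusted p = 0.0598; in the other leave-outs it stayed under 0.05). S100b changed by -0.51 ± 0.20 (SE, limma adjusted p = 0.0989) and Sox10 by -0.22 ± 0.15 (SE, limma adjusted p = 0.377), and neither passed. Whether the glia genes differ among themselves in this response was not tested.

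Both receptors were highest in DSS saline. Ednrb is the endothelin receptor of crest cells, also found on other cells of the wall. In TNBS, Ednrb held 1.33, 1.24 and 0.889 FPKM with saline and 1.62, 2.11 and 0.477 with thymopentin. In DSS, Ednrb held 3.98, 3.12 and 4.31 FPKM with saline and 1.56, 1.27 and 1.94 with thymopentin. DSS saline overlapped no other group, and TNBS thymopentin spread from 0.477 to 2.11 FPKM. Ngfr is the low-affinity neurotrophin receptor (p75). In TNBS, Ngfr held 0.947, 0.856 and 0.676 FPKM with saline and 1.89, 1.53 and 2.196 with thymopentin. In DSS, Ngfr held 2.58, 3.88 and 3.21 FPKM with saline and 2.495, 1.24 and 2.23 with thymopentin. TNBS saline lay below every other library. Both were higher in DSS saline than in TNBS saline, Ednrb by 1.16 ± 0.24 (SE, limma adjusted p = 0.00297) and Ngfr by 1.20 ± 0.18 (SE, limma adjusted p = 0.000483). In DSS, Ednrb fell with thymopentin by 0.89 ± 0.24 (SE, limma adjusted p = 0.0317) and Ngfr changed by -0.51 ± 0.18 (SE, limma adjusted p = 0.0701), which did not pass. The Ednrb call was lost without DSS saline 1, DSS saline 3 or any DSS thymopentin library, with adjusted p up to 0.104.

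Counted together, between the saline groups 23 of the 25 genes tested were higher in DSS, 1 (L1cam) lower and 1 (Nos1) not called, where 15.2% of all tested genes were higher and 31.5% lower. The median log2 fold change of the 25 was 1.26, and that of all tested genes -0.14. Over all 31 genes, 28 were higher and 1 lower at the lower minimum, against backgrounds of 15% and 22.8%, and the libraries of 28 did not overlap in the higher direction (20.1% of all genes) and those of L1cam in the lower (30.5%). Cartpt and Nos1 were the genes not called. Leaving out TNBS saline 3, the library that stands apart in Hoxb13, gave 24 higher and 1 lower of 26 tested. Each of the 12 leave-outs gave 22 to 24 higher and 1 lower, and 22 of the 24 calls were held in all of them, those of Gfap and Ret being the exceptions. The smooth muscle term ended 7 of the calls, those of Gfap, S100b, Gal, Scg2, Stmn3, Nefl and Ret.

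**Figure D3:**
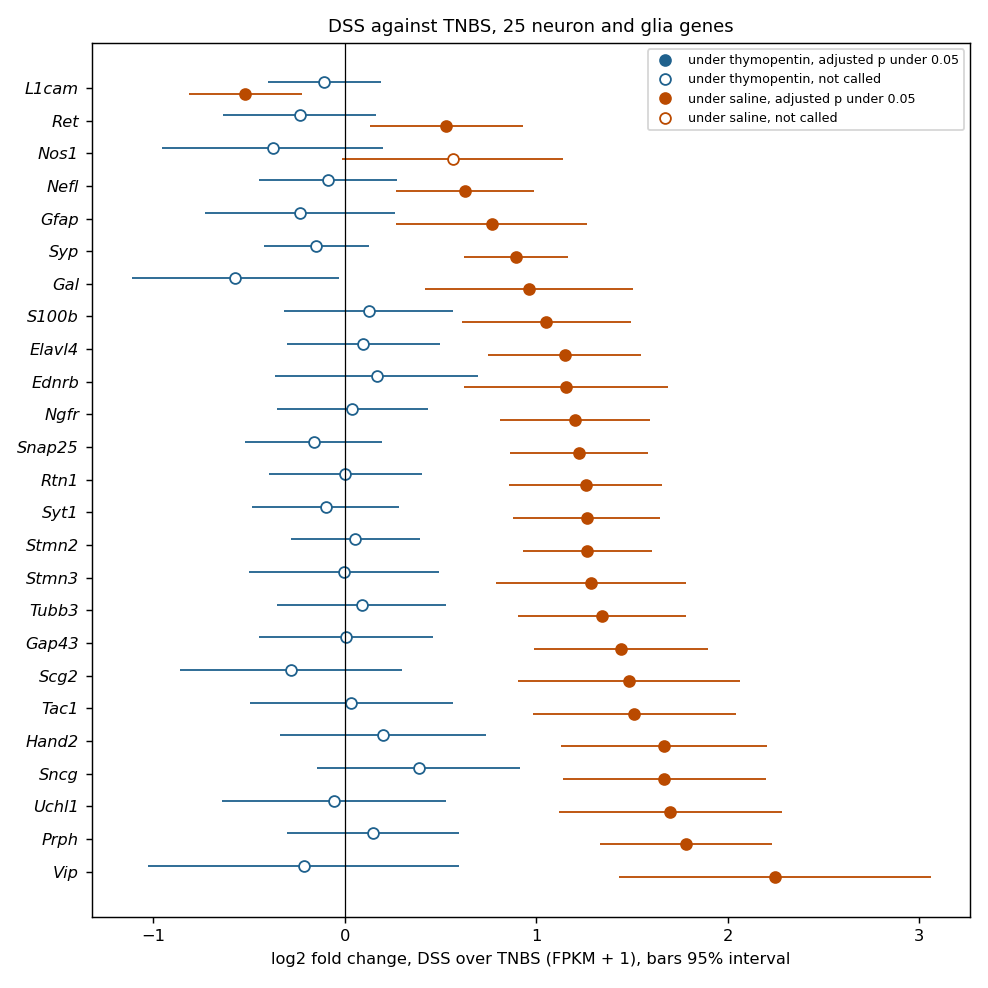
Log2 fold change of DSS over TNBS on log2(FPKM + 1) for 25 neuron and glia genes, under saline and under thymopentin; points are limma estimates, bars their 95% intervals, filled where called. Under saline 23 lie above 0 and filled, and under thymopentin all are open, with estimates from -0.57 to 0.39.

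Under thymopentin 0 of the 25 were called between the models, where 27.5% of all tested genes were called in limma's test. Only 1 of the 25, Gal at -0.57, had an unadjusted p under 0.05 (40.8% of all genes did), and the array-weighted fit called 1. The median difference of the 25 was 0.00, with estimates from -0.57 to 0.39. Intervals were wide for some: for Vip the 95% interval ran from -1.028 to 0.597, so differences up to these bounds lay within its interval. Without DSS thymopentin 2 the Vip estimate was 0.036. Over all 31 genes at the lower minimum 0 were called, against 18% of all genes, and 3 had an unadjusted p under 0.05, against 32.7%. This comparison and the saline one use different libraries, and no library is shared between them.

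With thymopentin in DSS, 20 of the 25 fell, 0 rose and 5 (Nefl, L1cam, Nos1, S100b and Ngfr) were not called, where 4.3% of all tested genes fell, 12.7% rose and 17% changed in either direction. The median was -0.85 over the 25 and 0.12 over all tested genes. Over all 31 genes at the lower minimum 17 fell, against 3.35%, and the libraries of 26 did not overlap in the lower direction, against 12.2%; Nefm, Nos1, Npy and Sox10 overlapped and L1cam lay higher, as 22.7% of all genes did. The count fell to 5 without DSS saline 3, to 6 without DSS thymopentin 2 and to 13 without DSS saline 2. Over all tested genes the lower calls went from 593 to 175, 212 and 437 in the same fits. The median of the neuron and glia genes tested was then -0.806, -0.658 and -0.825. Snap25, Syp, Stmn3 and Tac1 were called in all 12 leave-outs. A pseudocount of 0.1 lost Ednrb, Elavl4 and Ret, and quantile or median-ratio scaling added Ngfr. The lower minimum lost Elavl4, Uchl1 and Ret. DSS saline had the highest smooth muscle sum. With the smooth muscle level as a term in the fit, 3 of the 25 were called. These were Vip (-1.95) and Tac1 (-1.69) lower and L1cam (0.65) higher. That fit called 487 lower and 797 higher of all 13794 tested genes, and the median of the 25 was -0.461.

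In TNBS, limma called 0 of the 25 with thymopentin, against 0.667% of all genes, and 12 of the 25 had an unadjusted p under 0.05, against 12.7%. The estimates of 22 were above 0 and of 3 below (Gfap, L1cam and Tac1), with a median of 0.43 against 0.03 for all tested genes. Over all 31 genes limma called 0 (background 0.365%) and 13 had an unadjusted p under 0.05 (11.7%). The libraries of 15 lay higher in thymopentin without overlap and of 0 lower, where 11.7% and 5.91% of all genes did so. Nefm at the lower minimum changed by 0.39 ± 0.10 (SE, limma adjusted p = 0.141). When limma weighted the libraries by their quality, 10 of the 25 were called higher: Syp, Stmn2, Prph, Syt1, Ngfr, Scg2, Gap43, Rtn1, Snap25 and Vip; that fit called 2547 of all genes, against 92 without weights. Without TNBS saline 3, 0 of 26 were called.

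**Figure D4:**
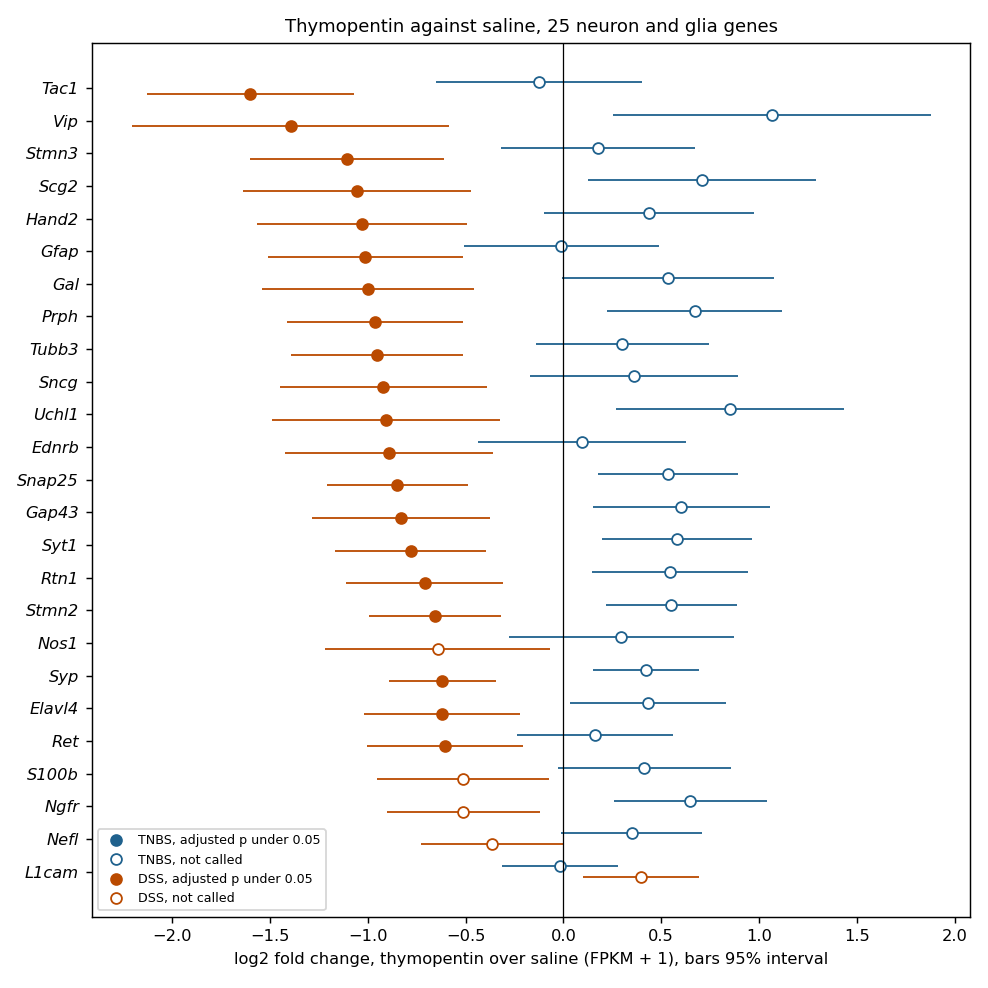
Log2 fold change of thymopentin over saline on log2(FPKM + 1) in TNBS and in DSS for 25 neuron and glia genes; points are limma estimates, bars their 95% intervals, filled where called. In DSS 20 lie below 0 and filled, and in TNBS all are open with 22 above 0.

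The difference between the responses, DSS minus TNBS, was called lower for 17 of the 25 and higher for 0, where 2.42% of all tested genes were lower and 2.73% higher. Its median was -1.26 over the 25 and 0.11 over all genes, and Vip had the largest, -2.46 ± 0.52 (SE, limma adjusted p = 0.0286). Over all 31 genes at the lower minimum 15 were called lower, against 1.75%. Not called among the 25 were Nefl, L1cam, Sncg, Nos1, Ret, Gfap, S100b and Ednrb, so the difference passed for neither of the glia genes Gfap and S100b. Most of these calls were lost on leaving out 1 library or another, while the median of the genes stayed between -1.396 and -1.077. Lower calls over all genes fell as well, from 334 to 67 without DSS saline 3. They were 86 without TNBS saline 1 and 95 without DSS thymopentin 2. Of the 17, 3 were left without DSS saline 3, 5 without TNBS saline 1, 6 without TNBS thymopentin 1 or DSS thymopentin 2, 7 without TNBS saline 2, 9 without DSS thymopentin 3, 13 without TNBS saline 3, and 10 without either TNBS thymopentin 3 or DSS saline 2. Prph, Snap25 and Syp were called in all 12 leave-outs. A pseudocount of 0.1 lost Stmn3. With the smooth muscle level as a term, only Vip was called, at -3.26, and the median of the 25 was -0.859. Over all 13794 tested genes that fit called 185 lower and 235 higher.

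Other genes of the system, from lists chosen with earlier results of these data known, gave the same order in part. Of 36 other neuron genes 20 were tested; 15 were higher and 1, Chgb, lower in DSS saline than in TNBS saline, where 15.2% of all tested genes were higher and 31.5% lower. With thymopentin in DSS 9 of the 20 fell and 0 rose, where 4.3% and 12.7% of all tested genes did. Penk, the enkephalin precursor, fell by 1.42 ± 0.21 (SE, limma adjusted p = 0.00261) and Sst, somatostatin, by 1.43 ± 0.20 (SE, limma adjusted p = 0.00222). Dbh, dopamine β-hydroxylase, fell by 1.18 ± 0.19 (SE, limma adjusted p = 0.00447) and Eno2, neuronal enolase, by 0.60 ± 0.10 (SE, limma adjusted p = 0.00549). These 4 calls held in all 12 leave-outs, and the smooth muscle term ended that of Eno2 (adjusted p = 0.05). Sst is made by enteroendocrine cells too. In TNBS 1 of the 20, Cplx2, which encodes a complexin of vesicle release, rose with thymopentin, by 0.64 ± 0.11 (SE, limma adjusted p = 0.0283), a call lost without TNBS saline 1 or 3 or any TNBS thymopentin library (adjusted p up to 0.102). Of 6 other glia genes tested, 2 were higher and 2 lower in DSS saline than in TNBS saline. Cdh19, of enteric glia, fell in DSS with thymopentin by 0.65, while Mbp and Erbb3, which other cells also express, rose by 0.53 and 0.85. Of these 3 only the Erbb3 call held in all 12 leave-outs. Those of Cdh19 and Mbp were lost without DSS saline 1 or any DSS thymopentin library, that of Mbp also without DSS saline 3, and that of Cdh19 also without TNBS saline 1, TNBS saline 2 or TNBS thymopentin 1, with adjusted p up to 0.143. The Mbp call was also lost with median-ratio scaling (adjusted p = 0.0632) or the smooth muscle term (adjusted p = 0.0528), and that of Cdh19 with a pseudocount of 0.1 (adjusted p = 0.133), the lower minimum (adjusted p = 0.0511) or the smooth muscle term (adjusted p = 0.359). Among 5 neurotrophic genes tested, the ligand Nrtn and the receptors Gfra1 and Gfra2 were higher in DSS saline than in TNBS saline, Gfra1 by 0.77, Gfra2 by 0.46 and Nrtn with an adjusted p of 0.0022 (limma), and Edn3, the ligand of Ednrb, was lower by 1.29; none of the 5 was called with thymopentin in either model. The Nrtn and Gfra1 calls held in all 12 leave-outs, while those of Edn3 and Gfra2 were lost without TNBS saline 1, TNBS saline 3, DSS saline 1 or DSS saline 2, and that of Gfra2 also without DSS saline 3, TNBS thymopentin 2 or DSS thymopentin 2 (adjusted p up to 0.147). The smooth muscle term ended the calls of Nrtn (to 0.431, adjusted p = 0.145), Gfra1 (to 0.458, adjusted p = 0.0783) and Gfra2 (to 0.653, adjusted p = 0.0721), and that of Edn3 stayed, at -2.76.

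Some neighboring cell types of the wall moved beside the neuron genes, and others did not. Of 11 smooth muscle genes tested, 9 were higher in DSS saline than in TNBS saline, where 15.2% of all tested genes were, and 6 fell in DSS with thymopentin, where 4.3% did, with 0 in the opposite direction. Tagln, which encodes transgelin of the contractile apparatus, fell by 1.08 and Cnn1, calponin, by 1.38. Both calls were lost without DSS saline 1, DSS saline 3 or any DSS thymopentin library (adjusted p up to 0.148), and that of Cnn1 held only without TNBS saline 2 or TNBS saline 3. Quantile scaling also ended both calls (adjusted p = 0.0589 for Tagln and 0.0822 for Cnn1), and the lower minimum that of Cnn1 (adjusted p = 0.0577). Epithelial genes went the other way between the saline groups, with 6 of 10 lower in DSS, where 31.5% of all tested genes were lower. Of 5 endothelial genes tested 5 were higher in DSS saline than in TNBS saline, and of 7 stromal and mesothelial genes 5, with 0 lower in either list. With thymopentin in DSS 0 of the endothelial and 2 of the stromal genes fell. Of 4 interstitial cell genes tested, 1 was higher and 1 lower in DSS saline than in TNBS saline, and 1 fell in DSS with thymopentin. The interstitial sum was lowest by mean in DSS saline, at 30.6 ± 4.99 FPKM (SD, n = 3). It was 39.2 ± 16.0 in TNBS saline, 56.7 ± 6.82 in TNBS thymopentin and 51.0 ± 4.47 in DSS thymopentin. Ano1 and Edn1 led this sum, at 11.7 and 10.2 FPKM in DSS saline and 26.5 and 18.0 in DSS thymopentin. Kit was 3.6 and 3.81 FPKM in these groups. Gja1 and Etv1 went the other way, at 3.71 and 1.41 FPKM in DSS saline and 1.97 and 0.686 in DSS thymopentin. The sum thus does not stand for each gene of the list. The part of muscle, epithelial, endothelial, stromal or interstitial cell content in the neuron and glia results was not tested beyond the fit with the smooth muscle term. That fit left 16 of the 25 genes higher and L1cam lower between the saline groups, with a median of 0.904 over the 25. Over all 13794 tested genes it called 2001 higher and 2871 lower.

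The authors' deposited tables, which list only genes that changed at least 2-fold with a p of at most 0.0499, held 21 of the 31 genes for DSS, all lower with thymopentin, and 2 for TNBS, both higher. In full, the authors' deposited table for DSS listed 2326 genes, 1454 lower and 872 higher, and the authors' deposited table for TNBS listed 1173, 496 lower and 677 higher. How many genes the authors tested is not known here, so no share over all genes stands beside these counts. They share their libraries with the comparisons above. In the authors' deposited table for DSS, Tac1 had a log2 fold change of -1.90, Gfap -1.89 and Vip -1.61. Chat and Cartpt, which were too low for the FPKM minimum, were listed there at -1.23 (FDR 0.00213) and -1.55 (FDR 0.0203). Taken back from the log scale, the authors' deposited table holds reads divided by the size factor of each library. For Chat these scaled reads were 65, 93 and 106 in the DSS saline libraries, and 33, 37 and 40 in the DSS thymopentin libraries. For Cartpt the authors' deposited table gave 38, 84 and 57 scaled reads for saline, then 18, 11 and 32 for thymopentin. Both genes thus rest on few reads, and neither pair of groups overlapped in those columns. In the authors' deposited table for TNBS the 2 genes were Ngfr, at 1.10 (FDR 0.000419), and Syt1, at 1.10 (FDR 0.00325).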

How the data were processed

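Total RNA of colon was sequenced in 12 libraries, 3 in each of 4 groups, and groups were read from the labels. Per the submitters' processing notes, FastQC, STAR 2.5, Cuffnorm, DESeq 1.22.1 and the mm9 build were used, with no role or order given; no source used here gives the gene models. The authors deposited FPKM for 55335 genes. Their tables of selected genes hold log2 values per library and, per the file headers, each gene's p-value, FDR and log2 fold change between groups. Those per-library log2 values, raised back and reduced by 1, were whole reads over a size factor within 0.01 reads for all low values up to 30 reads; no count test was run, because only selected genes are listed.

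Here log2(FPKM + 1) of the 13794 genes with a mean of at least 1 FPKM was fitted with limma 3.58.1 in R 4.3.3: 4 group means, 8 residual degrees of freedom and an empirical Bayes trend. P-values were two-sided and adjusted by Benjamini-Hochberg over all tested genes within each of the comparisons; a call is an adjusted p under 0.05. With 3 libraries against 3 an exact permutation test cannot go below 0.1, so none was used. Python 3.11.15, pandas 2.3.3, numpy 2.4.6 and matplotlib 3.10.9 made the tables and plots, and the fit was tested on simulated data. The 31 genes and all lists were chosen with earlier results of these data known. All 31 are named, and values per library are given for genes called in any comparison and for 10 defining genes. Apart from the posterior homeobox genes and the interstitial cell genes, genes of other lists are named only where called. A glia gene of the other lists is not reported here. Same-numbered TNBS libraries deviated together from their group means (correlation over genes 0.124, 0.268 and 0.476), but TNBS saline 2 did so with thymopentin 1 too (0.287). In DSS (-0.136, 0.043 and -0.14) the libraries share only a number. The main fit did not pair libraries by number, and the replicate block within each model was an alternative only. Alternatives were another pseudocount (0.1), minimum means of 0.1 and 5 FPKM, quantile and median-ratio scaling, a replicate block, array weights, smooth muscle level as a term, and leaving out each library.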

Additional observations from a re-analysis of the deposited data

Results flagged for a closer look

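For 17 genes the response to thymopentin differed between the models by limma's test of the difference itself, in which each value is the log2 fold change in DSS minus that in TNBS. Among peptide precursors the differences were -2.46 for Vip, -1.53 for Gal and -1.48 for Tac1. Cytoskeletal and axonal genes differed by -1.76 for Uchl1, -1.63 for Prph, -1.43 for Gap43, -1.29 for Stmn3, -1.25 for Tubb3 and -1.21 for Stmn2. Vesicle and secretory genes differed by -1.76 for Scg2, -1.38 for Snap25, -1.36 for Syt1, -1.26 for Rtn1 and -1.04 for Syp. The RNA-binding gene Elavl4 differed by -1.05, the regulator Hand2 by -1.47 and the receptor Ngfr by -1.16. All 17 were negative, and 2.42% of all tested genes were called in that direction. With the smooth muscle level as a term Vip alone remained called. Lower calls over all tested genes were then 185, and the median of the 25 tested neuron and glia genes was -0.859.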

How the results depend on the processing

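Of 1758 alternative values of single genes, 1428 kept direction and call, 312 lost the call, 15 gained it and 3 reversed. The called value that reversed was Ret between the saline groups, with the smooth muscle term, at -0.035 (from 0.53). The others were not called before or after: Tac1 in TNBS ran from -0.311 to 0.007 (without TNBS saline 2) over the leave-outs, and Vip between models under thymopentin from -0.396 to 0.036 (without DSS thymopentin 2). With the smooth muscle term the genes called were 3 in DSS, 1 for the difference and 1 (Gal, lower) between models under thymopentin. Over all tested genes that fit called 1284, 420 and 4100 in the same order. A minimum mean of 5 FPKM, which left 10 of the 31 genes tested, gave 9 in DSS, 8 for the difference and 10 between the saline groups. Array weights gave 10 in TNBS and 1 between models under thymopentin. Leaving out 1 library at a time gave 5 to 22 called genes in DSS (20 with all libraries) and 3 to 16 for the difference (17 with all libraries); the cause was not tested beyond the loss of a library. With the replicate block, 0 were called in TNBS, 18 in DSS (17 lower and L1cam higher) and 14 for the difference; the models hold separate blocks, so comparisons between models could not be fitted with it. In TNBS the block, which pairs libraries by number, changed no call of the 25 genes. There TNBS saline 2 correlated more with thymopentin 1 (0.287) than with its own number. In DSS the block ended the calls of Gcg (adjusted p = 0.0939), Scgn (adjusted p = 0.0548) and Cdh19 (adjusted p = 0.0581). Scaling shifted the median of all genes in DSS from 0.12 to 0.02 (quantile) and -0.01 (median ratio), and the share of calls that were higher from 74.7% to 52.5% and 44% there, from 53% to 41.1% and 33.8% for the difference, and from 32.5% to 43% and 50.9% between the saline groups; 21 of the 25 genes fell in DSS under both. Genes with a mean under 1 FPKM (Chat, Npy, Cartpt, Elavl3, Nefm and Sox10) have low levels, and whether depth limits them was not tested.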

Other observations

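Enteroendocrine cells, which share secretory genes with neurons, had 10 genes tested in the same fit. Gcg, the proglucagon gene, fell with thymopentin in DSS by 0.56 ± 0.17 (SE, limma adjusted p = 0.0441), Scg3 by 0.65 ± 0.19 (SE, limma adjusted p = 0.0436) and Scgn by 0.65 ± 0.15 (SE, limma adjusted p = 0.0204), and 0 of the 10 rose, where 4.3% of all tested genes fell and 12.7% rose. All 3 calls were lost without DSS saline 3 or DSS thymopentin 2, those of Gcg and Scgn also without DSS thymopentin 3, and those of Gcg and Scg3 also without TNBS saline 1, TNBS saline 2, DSS saline 1, DSS saline 2 or DSS thymopentin 1, that of Gcg without TNBS thymopentin 3 and that of Scg3 without TNBS thymopentin 1 (adjusted p up to 0.143). The lower minimum ended the calls of Gcg (adjusted p = 0.0544) and Scg3 (adjusted p = 0.0567), and a pseudocount of 0.1 that of Scg3 (adjusted p = 0.0515). The smooth muscle term ended all 3, with Gcg at an adjusted p of 0.181, Scgn at 0.0823 and Scg3 at 0.434, the Scg3 value being -0.281. The enteroendocrine sums were 236 ± 93.1 FPKM (SD, n = 3) in TNBS saline, 352 ± 105 in TNBS thymopentin, 481 ± 16.9 in DSS saline and 345 ± 18.9 in DSS thymopentin.

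Connective tissue genes included calls with thymopentin in TNBS. Dcn, decorin, rose by 0.83 ± 0.10 (SE, limma adjusted p = 0.00674) and Lum, lumican, by 0.76 ± 0.14 (SE, limma adjusted p = 0.0366), and in DSS both fell, by 0.51 and 0.54. The Dcn calls held in all 12 leave-outs, and that in TNBS was lost with the replicate number as a block (adjusted p = 0.0554). The Lum call in TNBS was lost with median-ratio scaling (adjusted p = 0.0516) and on leaving out each TNBS library, DSS saline 3 or DSS thymopentin 3 (adjusted p up to 0.118), and that in DSS without DSS saline 1, DSS saline 3 or DSS thymopentin 2 (up to 0.0866), or with the smooth muscle term (0.143). Adipocyte genes summed to 7.14, 2.43 and 41.8 FPKM in TNBS saline 1, 2 and 3 and to between 14.7 and 47.2 FPKM in DSS saline, with at most 9.65 FPKM in the thymopentin libraries of either model; in TNBS the groups overlapped, and TNBS saline 3 alone was high.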
